A study of Mus musculus with 23 samples.

Results

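The levels of 40 interferon-induced genes were examined in TM4 cells, an immortalized Sertoli cell line derived from mouse testis. The genes were taken from a list that was drawn up with results of these data known, and the probes of each gene were found through their RefSeq transcripts. Of the 40 genes, 37 had a named probe (49 probes in all, 12 genes with more than 1), among 20145 genes named on the array. No probe was named for Ddx60, Mx1 or Mx2. A gene's level is that of its brightest probe over all arrays.

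Type I interferons are secreted antiviral cytokines. A cell senses foreign RNA with receptors such as RIG-I and MDA5 and makes interferon. The interferon binds the receptor IFNAR1 and IFNAR2 on the same or a neighbouring cell. The kinases JAK1 and TYK2 then phosphorylate STAT2, which with IRF9 forms part of a complex that binds a short element of repeated GAAA in the promoters of a large set of genes. The products of these genes block viral entry, translation and replication, and some of them (IRF7, RIG-I, MDA5) feed back on sensing. Sertoli cells, the nurse cells of the seminiferous tubule, are known to mount this antiviral response.

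The study asked how candidate replacements for a phthalate plasticizer affect gene expression in these cells. TM4 cultures received 100 μM of 1 compound in 1% DMSO for 48 hr, or 1% DMSO alone, and RNA of each culture was hybridized to its own 1-colour array. MEHP is the monoester metabolite of the phthalate DEHP, DINCH is a diisononyl ester of cyclohexane dicarboxylic acid, DOM is dioctyl maleate, DOS is dioctyl succinate, and BDB is a dibenzoate of butanediol. Each group had 4 arrays, except DOS with 3. The replicates are called biological by the study and all come from 1 cell line, so no comparison speaks for another line or for testis tissue.

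The 23 arrays lay on 3 slides. DMSO, DOM and DOS arrays lay in rows 2 and 4 of the slides, and MEHP, DINCH and BDB arrays in rows 1 and 3, so for MEHP, DINCH and BDB against DMSO and for DOM against DINCH the row and the compound cannot be told apart. The rows are shared in DOM against DMSO, DOM against DOS and DINCH against BDB. The 75th percentile of the processed signal was 204.6 to 350.7 over the arrays, 43.4% to 52.2% of spots were well above background, and no spot was saturated. Of 16 Sertoli cell markers 8 were well above background on every DMSO array, among them Gata4, Sox9, Dmrt1, Dhh and Inhbb, and 4 on no array (Wt1, Fshr, Gata1, Cldn11). Of 9 macrophage and leukocyte markers 6 were on no array well above background (Ptprc, Adgre1, Lyz2, Fcgr1, Mrc1, C1qa). The others, Itgam, Csf1r and Cd14, were well above it on all 23 arrays.

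Promoter sequence is shown because the interferon-response element is the known link between these genes and no sequence was used to choose them. RefSeq promoters (build GRCm38.p6, 250 bases before to 50 after the transcript start) were given for 31 of the 40 genes. The letters GAAA, 2 free bases and GAAA again, which form the core of the element that the complex with STAT2 and IRF9 binds, stood on either strand in 15 of these 31 (48.4%), against 3.99% of all 27025 genes in the same table. Of other interferon-induced genes, 36 of 64 held it (56.2%). A match is a description of the letters and not a test of binding. Only a spacer of 2 bases was counted, so a gene without a match may hold the repeats at another spacing.

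The 160 bases before the transcript start are given below for 5 genes with a match and for 3 without. Capitals mark the bases that match this pattern or its reverse complement, and each sequence runs 5′ to 3′ in the direction of its gene. Isg15 lay at chr4:156200819-156200978 (minus strand), Ifit1 at chr19:34640729-34640888 (plus strand), Ifit3 at chr19:34583369-34583528 (plus strand), Gbp3 at chr3:142559884-142560043 (plus strand) and Rsad2 at chr12:26456453-26456612 (minus strand). In Isg15 overlapping matches began at −78, −72 and −66 relative to the start, and in Gbp3 at −45 and −39.
Isg15: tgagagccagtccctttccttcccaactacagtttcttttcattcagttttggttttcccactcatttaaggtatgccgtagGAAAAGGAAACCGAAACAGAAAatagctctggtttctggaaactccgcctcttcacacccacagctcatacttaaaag
Ifit1: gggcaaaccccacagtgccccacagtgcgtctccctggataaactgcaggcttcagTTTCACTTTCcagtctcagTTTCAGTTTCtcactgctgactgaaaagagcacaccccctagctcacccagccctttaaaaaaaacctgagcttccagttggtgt
Ifit3: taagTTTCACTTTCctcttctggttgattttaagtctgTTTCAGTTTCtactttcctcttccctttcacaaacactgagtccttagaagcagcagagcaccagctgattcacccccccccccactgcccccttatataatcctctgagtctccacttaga
Gbp3: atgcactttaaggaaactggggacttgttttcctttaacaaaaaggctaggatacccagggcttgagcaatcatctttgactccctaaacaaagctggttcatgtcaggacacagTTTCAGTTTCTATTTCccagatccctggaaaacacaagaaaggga
Rsad2: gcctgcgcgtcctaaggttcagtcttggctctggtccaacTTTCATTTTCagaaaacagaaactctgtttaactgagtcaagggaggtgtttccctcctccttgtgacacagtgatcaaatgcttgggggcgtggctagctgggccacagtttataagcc
Oasl1 at chr5:114923080-114923239 (plus strand), Ifi44 at chr3:151749911-151750070 (minus strand) and Phf11d at chr14:59365491-59365650 (minus strand) are shown because they changed most with DOM, and these letters are not in their windows.
Oasl1: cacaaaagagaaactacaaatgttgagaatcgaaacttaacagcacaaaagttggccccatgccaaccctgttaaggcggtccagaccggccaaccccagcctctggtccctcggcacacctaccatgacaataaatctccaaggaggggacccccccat
Ifi44: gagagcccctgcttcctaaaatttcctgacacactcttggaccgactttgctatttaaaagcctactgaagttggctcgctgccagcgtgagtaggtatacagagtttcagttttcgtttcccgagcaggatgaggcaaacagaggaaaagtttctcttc
Phf11d: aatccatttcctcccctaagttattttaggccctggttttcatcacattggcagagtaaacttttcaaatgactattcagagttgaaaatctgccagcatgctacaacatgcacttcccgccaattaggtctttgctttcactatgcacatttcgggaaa

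Of 32 tested interferon-induced genes, 18 were called higher with DINCH (4.25% of all genes were) and 14 lower with DOM (10.6% of all genes were), and 9 genes were in both sets. With DINCH, Oasl1, Dhx58, Irf7, Phf11d and Ifit3 were 1.23 to 1.5 log2 units above DMSO, and no gene of the list was called lower. With DOM, Ifi44, Oasl1, Phf11d, Rsad2 and Oasl2 were 1.52 to 2.20 log2 units below DMSO, while Stat2 was above it. A gene is called here when any of its probes changed by more than 1.5-fold with an adjusted p below 0.05 over all probes tested in limma. The list was drawn up with the comparisons against DMSO and of DOM against DINCH known, so its values in them are a description and carry no test. In RNA from whole cultures, fewer cells that express a gene and less of its RNA per cell cannot be told apart.

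The mean over the 37 genes was taken on each array relative to their mean level on the DMSO arrays, on the log2 scale. The 37 include dim genes: Gbp7, Oas3 and Cmpk2 were well above background on no array, Oas2 on 1 and Oas1a on 15 of 23. It was −0.11, 0.07, 0.07 and −0.03 on the 4 DMSO arrays, 0.83, 0.63, 0.50 and 0.63 with DINCH and −0.54, −0.54, −0.55 and −0.74 with DOM. It was −0.35, −0.39, −0.34 and −0.39 with MEHP, −0.38, −0.40, −0.27 and −0.18 with BDB and −0.13, −0.10 and −0.09 with DOS. Every DINCH array thus lay above every other array and every DOM array below every other array. MEHP (−0.37 ± 0.02, SD, n = 4) and BDB (−0.31 ± 0.11, SD, n = 4) lay between DOM (−0.59 ± 0.10, SD, n = 4) and DMSO with no array in the DMSO range, and their own ranges overlapped. The DOS arrays (−0.11 ± 0.02, SD, n = 3) overlapped the DMSO arrays. The median over the 37 genes gave a partly different order. By it the DOM arrays (−0.42, −0.43, −0.39 and −0.58) overlapped the BDB arrays (−0.40, −0.45, −0.24 and −0.24). The DOS medians were −0.04, 0.11 and −0.02, and the DINCH arrays (0.77, 0.58, 0.41 and 0.60) still lay above every other array.

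**Figure D1:**
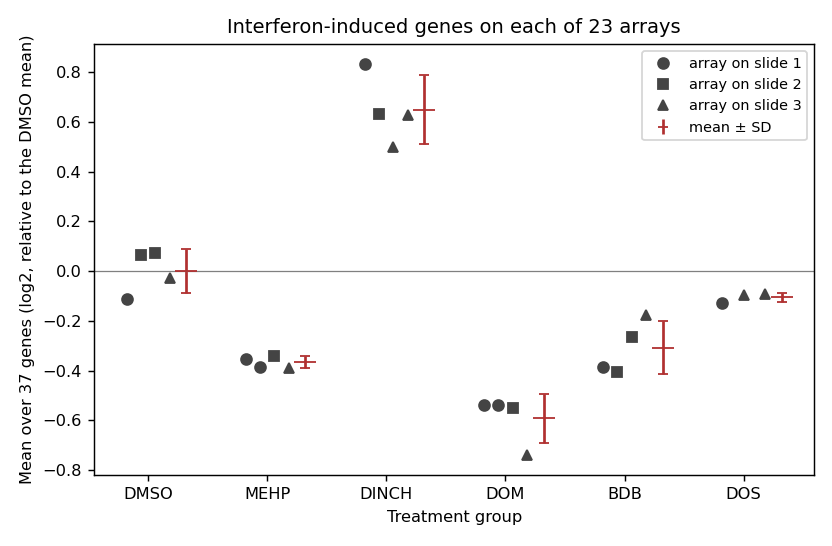
Mean log2 level of the 37 interferon-induced genes with a named probe on each array, relative to the DMSO mean, by treatment group (points, shape by slide; bars, mean ± SD of 4 arrays, 3 for DOS). DINCH arrays lie between 0.50 and 0.83, DOM arrays between −0.74 and −0.54.

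The direction of the mean over the 37 genes against DMSO was the same on each slide for DINCH and for DOM. Within slides 1, 2 and 3 the mean over the genes was 0.95, 0.56 and 0.59 higher with DINCH than with DMSO, and −0.43, −0.62 and −0.71 with DOM relative to DMSO. Single genes did not all follow: 34, 32 and 31 of 37 lay above DMSO with DINCH, and 16, 9 and 7 with DOM. Of the 31 genes tested in all 8 comparisons, 27 had their highest group mean with DINCH, 3 with DOS (Irf1, Lgals3bp, Samd9l) and 1 with DOM (Eif2ak2). The lowest group mean was with DOM for 14, with BDB for 9 and with MEHP for 8.

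Of the 40 genes, 33 were tested in at least 1 comparison. Gbp7, Oas3 and Cmpk2 were well above background on no array and Oas2 on 1 DINCH array. Oas1a reached the filter only in the comparisons with BDB. With DINCH 18 of 32 tested genes were called higher and 0 lower, where 8.26% of all tested genes were called in either direction (4.25% higher, 4.02% lower). With DOM 1 of 32 was called higher and 14 lower, against 20.5% of all genes (9.9% higher, 10.6% lower). The median change of the tested genes was 0.65 log2 units with DINCH and −0.55 with DOM, while that of all genes was 0.00 and −0.03. Nothing is read from these shares, since both comparisons chose the list. Without the filter on dim probes, 4 genes of the list were called with DINCH.

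The genes fell into sets by their calls with these 2 compounds. Dhx58, Gbp3, Herc6, Ifit1, Oasl1, Oasl2, Phf11d, Rtp4 and Usp18 (9 genes) were called higher with DINCH and lower with DOM. Bst2, Dtx3l, Ifit2, Ifit3, Irf7, Parp14, Rigi and Xaf1 (8 genes) were called higher with DINCH and were not called with DOM. Ifi44, Ifih1, Isg15, Rsad2 and Zbp1 (5 genes) were called lower with DOM and were not called with DINCH. Stat2 was called higher with both. The other 9 genes tested in both (Eif2ak2, Gbp2, Ifi35, Irf1, Irf9, Lgals3bp, Parp9, Samd9l, Trim25) were called in neither. Both comparisons use the same 4 DMSO arrays, so a deviation of those arrays moves a gene in both.

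**Figure D2:**
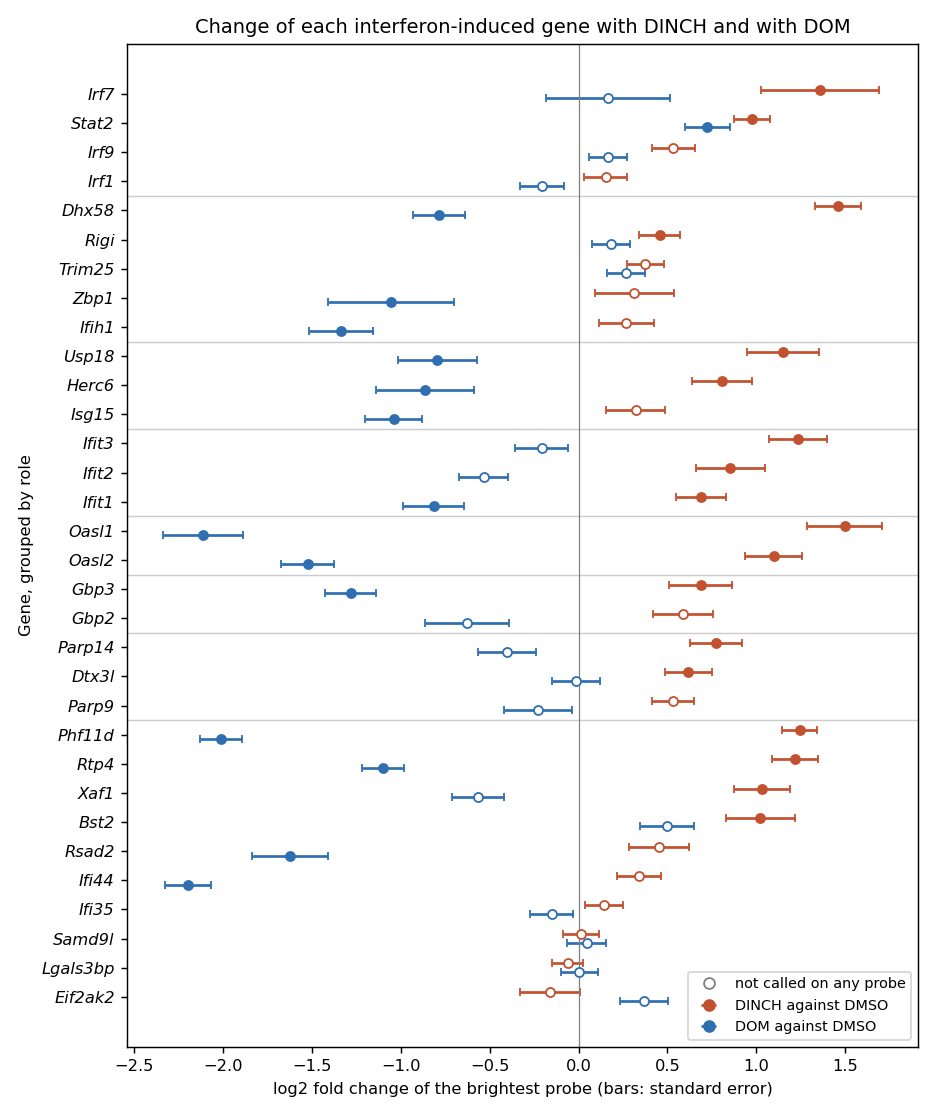
log2 fold change with standard error of the brightest probe of each of 32 interferon-induced genes for DINCH (red) and DOM (blue) against DMSO, 4 arrays a group, grouped by role. Filled points were called on any probe; Oasl1 lies at 1.5 and −2.11 and Stat2 at 0.98 and 0.73.

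The transcription factor genes of the list were Stat2, Irf9, Irf7 and Irf1. STAT2 and IRF9 are parts of the complex that interferon activates, IRF7 drives the genes of interferon alpha, and IRF1 is induced by both interferon types. Stat2 had log2 levels (0 is the 75th percentile of an array) of 1.62, 1.94, 1.77 and 1.69 on the DMSO arrays, 2.79, 2.72, 2.61 and 2.79 with DINCH and 2.59, 2.69, 2.45 and 2.20 with DOM. It was 2.19, 2.07, 2.25 and 2.10 with MEHP, 1.65, 1.22, 1.69 and 1.48 with BDB and 1.80, 1.93 and 1.83 with DOS. DINCH, DOM and MEHP arrays all lay above the DMSO arrays, and the DINCH and DOM arrays overlapped. The change was 0.98 (standard error 0.10) with DINCH, 0.73 (standard error 0.13) with DOM and 0.40 (standard error 0.09) with MEHP, the last of these not called. Stat2 was the 1 gene of the list called higher with DOM, where 14 were called lower.

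The log2 levels of Irf7 were −4.14, −3.28, −2.92 and −2.32 with DMSO, −1.39, −1.96, −1.98 and −1.89 with DINCH and −3.36, −3.12, −3.03 and −2.50 with DOM. They were −4.27, −4.21, −3.23 and −3.44 with MEHP, −3.64, −3.36, −3.31 and −2.76 with BDB and −3.19, −2.73 and −3.10 with DOS. The DINCH arrays lay above those of every other group, the other compounds' arrays overlapped those of DMSO, and the DMSO arrays spread widely (SD 0.76). Irf7 was 1.36 (standard error 0.33) with DINCH and 0.16 (standard error 0.35) with DOM relative to DMSO. With the replicate number as a block its DINCH value was the same and was not called.

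Irf9 had log2 levels of 0.56, 0.82, 0.79 and 0.51 with DMSO, 0.99, 1.25, 1.18 and 1.4 with DINCH and 0.96, 0.75, 0.88 and 0.76 with DOM. It was 0.52, 0.31, 0.68 and 0.53 with MEHP, 0.34, 0.63, 0.79 and 0.81 with BDB and 0.55, 0.79 and 0.73 with DOS. DINCH arrays lay above the DMSO arrays without overlap and the other groups overlapped DMSO, but the change with DINCH, 0.53 (standard error 0.12), was under 1.5-fold and was not called. Irf1 had log2 levels of 4.30, 4.73, 4.67 and 4.80 for DMSO, 4.79, 4.77, 4.71 and 4.84 for DINCH and 4.43, 4.39, 4.33 and 4.53 for DOM. It was 4.47, 4.47, 4.32 and 4.5 with MEHP, 4.43, 4.30, 4.30 and 4.4 with BDB and 4.73, 4.79 and 4.96 with DOS. All groups overlapped DMSO.

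Of 5 sensors and their regulators, 2 were called higher with DINCH and 3 lower with DOM. The shares of all genes for these and the next role counts are the 4.25% and 10.6% given above. Dhx58, which codes for LGP2, a regulator of the RNA helicase sensors, had log2 levels of −3.58, −3.52, −3.64 and −3.44 with DMSO, −2.41, −2.04, −2.07 and −1.82 with DINCH and −4.69, −4.13, −4.44 and −4.06 with DOM. They were −3.87, −3.31, −3.41 and −3.18 with MEHP, −3.95, −3.40, −3.67 and −2.74 with BDB and −4.02, −3.27 and −3.88 with DOS. DINCH arrays lay above and DOM arrays below all DMSO arrays, by 1.46 (standard error 0.13) and −0.79 (standard error 0.14), and the other groups overlapped DMSO. Ifih1, which codes for the long-RNA sensor MDA5, was −1.34 (standard error 0.18) with DOM and 0.27 (standard error 0.15) with DINCH, and only the first was called. Zbp1, a sensor of Z-form nucleic acid, was −1.05 (standard error 0.35) with DOM with arrays that overlapped DMSO. Rigi, which codes for RIG-I, was 0.46 (standard error 0.12) with DINCH on its brightest probe and 0.86 on its other probe, and only the latter was called. Trim25, a ubiquitin ligase for RIG-I, was called neither with DINCH (0.38) nor with DOM (0.27).

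The ISG15 group codes for a ubiquitin-like protein and the enzymes that attach or remove it. Of the 3 genes, 2 were called higher with DINCH and all 3 lower with DOM. Isg15, the modifier itself, had log2 levels of 4.90, 4.77, 4.82 and 4.35 with DMSO, 5.34, 5.15, 4.91 and 4.74 with DINCH and 3.93, 3.75, 3.64 and 3.36 with DOM. It was 4.79, 4.54, 4.32 and 4.78 with MEHP, 4.29, 4.21, 4.14 and 4.18 with BDB and 4.67, 4.5 and 4.48 with DOS. DOM arrays and BDB arrays lay below all DMSO arrays, and the DINCH arrays overlapped them. The change was −1.04 (standard error 0.16) with DOM, −0.51 (standard error 0.12) with BDB and 0.32 (standard error 0.16) with DINCH, and only that with DOM was called. Herc6, a ligase for ISG15 in the mouse, was 0.81 (standard error 0.17) with DINCH and −0.86 (standard error 0.28) with DOM. Usp18, the protease that removes ISG15 and damps the receptor, was 1.15 (standard error 0.20) with DINCH and −0.79 (standard error 0.22) with DOM. With MEHP Usp18 was −1.68 (standard error 0.43), the largest value of the list in that comparison, and was not called, and it was well above background on 17 of the 23 arrays.

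The IFIT proteins bind viral RNA that lacks host cap marks, and of 3 genes all were called higher with DINCH and 1 lower with DOM. Ifit3 had log2 levels of −2.13, −1.67, −1.46 and −1.62 with DMSO, −0.19, −0.66, −0.62 and −0.47 with DINCH and −1.79, −2.0, −1.84 and −2.09 with DOM. They were −2.10, −2.48, −2.43 and −2.34 with MEHP, −2.45, −2.27, −2.30 and −2.26 with BDB and −2.25, −2.05 and −1.90 with DOS. The DINCH values of Ifit3 exceeded all others, BDB arrays lay below the DMSO arrays, and the DOM arrays overlapped DMSO. The change was 1.23 (standard error 0.16) with DINCH and −0.21 (standard error 0.15) with DOM. Ifit1 was 0.69 (standard error 0.14) with DINCH and −0.81 (standard error 0.17) with DOM, both called, and Ifit2 was 0.85 (standard error 0.20) and −0.53 (standard error 0.14), called with DINCH only. Ifit3 has a near-identical neighbour, Ifit3b, and the probes of such pairs can share signal.

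Oasl1 had the largest difference of the list between DOM and DINCH. OASL1 and OASL2 are relatives of the 2′-5′ oligoadenylate synthetases that activate RNase L, and OASL1 is known in the mouse as an inhibitor of Irf7 translation. Oasl1 had log2 levels of 2.32, 1.28, 1.65 and 1.57 with DMSO, 3.43, 3.23, 2.91 and 3.25 with DINCH and −0.09, −0.62, −0.24 and −0.66 with DOM. They were 2.26, 1.80, 1.90 and 2.34 with MEHP, 1.62, 1.04, 0.99 and 1.46 with BDB and 1.41, 1.15 and 1.29 with DOS. The DINCH arrays were the highest and the DOM arrays the lowest of all, with no overlap with DMSO, and MEHP, BDB and DOS arrays overlapped DMSO. Oasl1 was 1.5 (standard error 0.21) with DINCH, −2.11 (standard error 0.22) with DOM and −3.61 (standard error 0.16) in DOM against DINCH, a 12.2-fold difference. Oasl2 had 0.12, 0.13, 0.15 and 0.60 with DMSO, 1.55, 1.25, 1.03 and 1.57 with DINCH and −1.41, −1.24, −0.99 and −1.46 with DOM. It had −0.44, −0.49, −0.41 and −0.05 with MEHP, −0.86, −0.57, −0.63 and −0.34 with BDB and −0.43, −0.12 and −0.06 with DOS. For Oasl2 the DINCH arrays lay above and the arrays of all 4 other compounds below those of DMSO. The change was 1.1 (standard error 0.16) with DINCH, −1.52 (standard error 0.15) with DOM, −0.85 (standard error 0.14) with BDB, −0.60 (standard error 0.14) with MEHP and −0.46 (standard error 0.16) with DOS, and only the first and second were called. DMSO replicate 4 was the highest of its group.

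**Figure D3:**
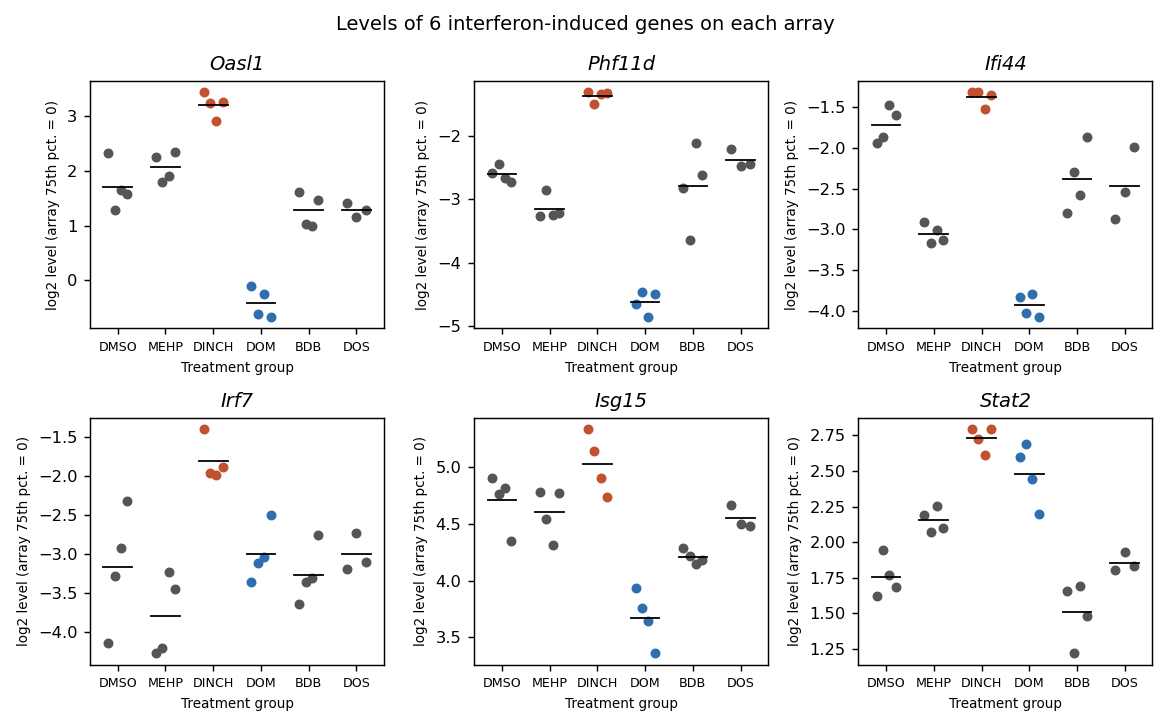
log2 level of Oasl1, Phf11d, Ifi44, Irf7, Isg15 and Stat2 on each array by treatment group (points), with the group mean (line), where 0 is the 75th percentile of the array. For Oasl1 the DINCH arrays lie between 2.91 and 3.43 and the DOM arrays between −0.66 and −0.09.

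Among the GTPases, Gbp3, one of the guanylate binding proteins that coat pathogen membranes, was 0.69 (standard error 0.18) with DINCH, −1.28 (standard error 0.14) with DOM and −0.77 (standard error 0.14) with MEHP, all called. With the replicate number as a block its DINCH value was the same and was not called. Gbp2 was 0.59 (standard error 0.17) with DINCH and −0.63 (standard error 0.24) with DOM and was called in neither. Parp9, Dtx3l and Parp14, which code for ADP-ribosyl transferases and the ligase partner of PARP9, were 0.53, 0.62 and 0.77 with DINCH, of which those of Dtx3l and Parp14 were called. With DOM they were −0.23, −0.01 and −0.40, and none was called.

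Of 10 remaining genes, most of them antiviral effectors, 4 were called higher with DINCH and 4 lower with DOM, and Ifi44 changed most with DOM. Ifi44 had log2 levels of −1.94, −1.87, −1.48 and −1.61 with DMSO, −1.33, −1.32, −1.53 and −1.35 with DINCH and −3.82, −4.01, −3.79 and −4.06 with DOM. They were −2.90, −3.17, −3.01 and −3.13 with MEHP, −2.80, −2.30, −2.58 and −1.87 with BDB and −2.87, −2.54 and −1.99 with DOS. DOM arrays were the lowest, MEHP and DOS arrays also lay below the DMSO arrays, and the DINCH arrays overlapped them. The change was −2.20 (standard error 0.13) with DOM, −1.33 (standard error 0.12) with MEHP and 0.34 (standard error 0.12) with DINCH, and 3 of 4 DOM arrays were well above background.

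Rsad2, which codes for viperin, a radical SAM enzyme that makes a chain-terminating nucleotide, was likewise lowest with DOM. Its log2 levels were −1.48, −1.80, −2.02 and −2.13 with DMSO, −1.20, −1.34, −1.33 and −1.75 with DINCH and −3.04, −3.76, −3.24 and −3.88 with DOM. They were −2.46, −2.86, −2.98 and −2.66 with MEHP, −2.27, −2.53, −2.85 and −2.31 with BDB and −2.08, −2.35 and −2.39 with DOS. DOM, MEHP and BDB arrays lay below the DMSO arrays, and DINCH and DOS arrays overlapped them. Rsad2 was −1.63 (standard error 0.21) with DOM and −0.89 (standard error 0.16) with MEHP, both called, and 0.45 (standard error 0.17) with DINCH.

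Phf11d, a PHD finger gene, had log2 levels of −2.58, −2.44, −2.66 and −2.73 with DMSO, −1.31, −1.49, −1.33 and −1.32 with DINCH and −4.66, −4.47, −4.85 and −4.49 with DOM. They were −3.27, −2.85, −3.25 and −3.22 with MEHP, −2.82, −3.64, −2.10 and −2.61 with BDB and −2.20, −2.47 and −2.45 with DOS. DINCH arrays lay above and DOM and MEHP arrays below the DMSO arrays, while BDB and DOS arrays overlapped them. Phf11d was 1.24 (standard error 0.10) with DINCH and −2.01 (standard error 0.12) with DOM, where 1 of 4 DOM arrays was well above background. Rtp4, which codes for a receptor transporter protein, was 0.18, 0.32, 0.50 and 0.47 with DMSO, 1.79, 1.47, 1.35 and 1.73 with DINCH and −0.62, −0.89, −0.56 and −0.86 with DOM. It was 0.00, −0.22, −0.07 and 0.26 with MEHP, −0.02, 0.11, 0.08 and 0.39 with BDB and 0.17, 0.18 and 0.38 with DOS. For Rtp4 the DINCH arrays lay above and the DOM arrays below all DMSO arrays, by 1.22 (standard error 0.13) and −1.1 (standard error 0.12), and the other groups overlapped DMSO.

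Bst2, which codes for tetherin, was 1.02 (standard error 0.19) with DINCH and 0.50 (standard error 0.15) with DOM, the second not called. Xaf1, an apoptosis factor, was 1.03 (standard error 0.16) with DINCH and −0.57 (standard error 0.15) with DOM, and −0.81 (standard error 0.13) with MEHP, called with DINCH and MEHP. Eif2ak2, Ifi35, Samd9l and Lgals3bp were not called with any compound against DMSO. Lgals3bp lay between 3.72 and 4.11 on all 23 arrays. Eif2ak2, which codes for the RNA-activated kinase PKR, was −0.16 (standard error 0.17) with DINCH and 0.37 (standard error 0.14) with DOM.

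With MEHP, 0 of 32 tested genes were called higher and 4 lower, against 1.69% of all genes (1.13% higher, 0.561% lower). These were Ifi44, Rsad2, Xaf1 and Gbp3, between −1.33 and −0.77. The median of the 32 genes was −0.26, with 26 of 32 below 0, against a median of −0.01 for all genes. With 1 array left out the number called was 1 to 5, and it was 1 without MEHP replicate 1, 3 or 4 and without DMSO replicate 2 or 3, and 2 without MEHP replicate 2. It was 7 with all 6 groups in 1 fit, 1 after normexp background correction and 0 without the filter on dim probes.

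With BDB, 0 of 33 tested genes were called in limma and 0% of all genes, and 3495 of 24292 probes had an unadjusted p below 0.05. The median was −0.29 with 29 of 33 genes below 0, and that of all genes −0.03. Oasl2 and Ifit1 had the largest changes, −0.85 (standard error 0.14) and −0.77 (standard error 0.10). With DOS, 0 of 32 genes and 0% of all genes were called, and 1725 of 24209 probes had an unadjusted p below 0.05. The median was 0.00 with 16 of 32 genes above 0. For BDB 4 genes of the list were called when the slide was a block, 4 when the 6 groups were fitted together and 2 after normexp background correction, and for DOS 0 were called in each of these.

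**Figure D4:**
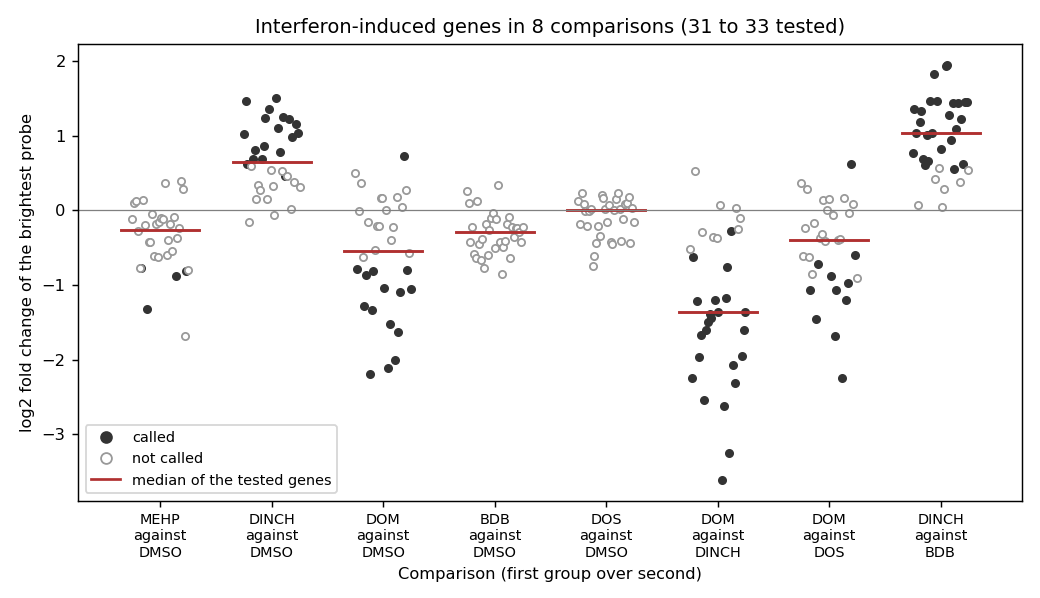
log2 fold change of the brightest probe of each tested interferon-induced gene in 8 comparisons (points, filled where called on any probe; red line, median). Against DMSO the medians run from −0.55 (DOM) to 0.65 (DINCH), and between compounds they are −1.36 for DOM against DINCH, −0.40 for DOM against DOS and 1.04 for DINCH against BDB.

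In DOM against DINCH, which uses no DMSO array, 0 of 32 tested genes were called higher and 23 lower, against 23.3% of all genes (11.8% higher, 11.6% lower). The largest differences were −3.61 (standard error 0.16) for Oasl1, −3.25 (standard error 0.12) for Phf11d (well above background on 1 of 4 DOM arrays), −2.62 (standard error 0.16) for Oasl2, −2.54 (standard error 0.11) for Ifi44 and −2.32 (standard error 0.14) for Rtp4, with no overlap of the arrays in any of the 5. Stat2 differed by −0.25 (standard error 0.13) and Trim25 by −0.11 (standard error 0.13), both with overlapping arrays. Within slides 1, 2 and 3 the mean over the 37 genes was −1.37, −1.18 and −1.31 with DOM relative to DINCH.

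The maleate DOM and the succinate DOS, which differ by a double bond in the acid core, were given at the same dose for the same time and lay in the same rows. In DOM against DOS, 1 of 31 tested genes was called higher (Stat2) and 10 lower, against 15.2% of all genes (7.15% higher, 8.06% lower). The median was −0.40, against −0.01 for all genes. The 10 lower genes were Gbp3, Ifi44, Ifih1, Isg15, Oasl1, Oasl2, Phf11d, Rsad2, Rtp4 and Xaf1, with Phf11d, again on 1 of 4 DOM arrays well above background, at −2.24 (standard error 0.13), Oasl1 at −1.69 (standard error 0.16) and Ifi44 at −1.46 (standard error 0.20). Stat2 was 0.63 (standard error 0.14), and its call was absent with DOS replicate 1 or 4 or DOM replicate 2 left out and, at 0.56, with the replicate number as a block. Without the filter on dim probes 6 genes of the list were called. This comparison was not among those that chose the list, but its DOM and DOS arrays entered them, so it is described and not read as a test.

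In DINCH against BDB, which also share rows and use no DMSO array, 26 of 33 tested genes were called higher and 0 lower, against 9.89% of all genes (5.41% higher, 4.48% lower). All 33 genes had changes above 0, with a median of 1.04 against 0.03 for all genes. The largest were 1.95 (standard error 0.15) for Oasl2, 1.93 (standard error 0.17) for Oasl1 and 1.83 (standard error 0.12) for Ifit3. The 7 genes not called were Eif2ak2, Irf1, Irf9, Lgals3bp, Oas1a, Samd9l and Zbp1. Without the filter on dim probes, and likewise after normexp background correction, 17 were called. The arrays of both groups entered the comparisons that chose the list, so this too is a description.

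The steps before and beside these genes were followed with 139 other genes of the pathway, of which 131 had a named probe. Of 18 interferon genes 15 had a probe, and 7 were tested (Ifna1, Ifna2, Ifna5, Ifna12, Ifna14, Ifnab and Ifnl3, with 6 of them tested in DOM against DOS). In limma 0 of the 7 were called in any comparison, and at an unadjusted p below 0.05 there were 2 in DOM against DMSO and 1 in each of the other compounds against DMSO. In the comparisons between compounds there were 0. The interferon alpha genes are near-identical in sequence and their probes cannot be taken as separate genes. Ifnb1, which codes for interferon beta, was well above background on none of the 23 arrays, and its log2 level lay between −7.15 and −5.66.

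Of 16 genes for interferon receptors and signalling, 14 were tested. Ifnar1, which codes for a chain of the interferon receptor, had log2 levels of 0.14, −0.06, 0.22 and 0.14 with DMSO, −0.09, 0.22, 0.34 and 0.05 with DINCH and 1.04, 0.75, 0.56 and 0.98 with DOM. DOM arrays lay above all DMSO and DINCH arrays. Ifnar1 rose with DOM by 0.72 (standard error 0.13) against DMSO (limma, adjusted p = 0.0032, higher on 4 of 4 DOM arrays), and this call held with each array left out. Its 2 dimmer probes were 0.07 and 0.33. No other gene of this list was called in any comparison. Ifnar2 was 0.17 (standard error 0.12) with DINCH and 0.31 (standard error 0.12) with DOM, Jak1 −0.07 (standard error 0.11) and −0.04 (standard error 0.11), and Tyk2 0.31 (standard error 0.15) and 0.53 (standard error 0.13).

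Of 26 genes for nucleic acid sensing and interferon induction, 24 were tested. Irf3, the factor that starts interferon beta transcription, was −0.02 (standard error 0.09) with DINCH and −0.06 (standard error 0.09) with DOM. Unc93b1, the chaperone of the endosomal Toll-like receptors, had log2 levels of 0.70, 0.99, 1.01 and 1.07 with DMSO, 2.02, 1.59, 1.88 and 1.97 with DINCH and 2.05, 2.09, 1.6 and 2.50 with DOM. It rose with both, without overlap, by 0.92 (standard error 0.13) with DINCH (limma, adjusted p = 0.0054) and 1.12 (standard error 0.18) with DOM (limma, adjusted p = 0.0021), on 4 of 4 arrays each and with every array left out in turn. Cgas, the cytosolic DNA sensor, fell with DOM by 0.82 (standard error 0.12, limma, adjusted p = 0.00153), and Zc3hav1, which codes for the RNA-binding protein ZAP, fell by 0.67 (standard error 0.12, limma, adjusted p = 0.00309), each lower on 4 of 4 arrays and with every array left out in turn. The call of Zc3hav1 was absent after normexp background correction, and that of Unc93b1 with DINCH was absent without the filter on dim probes. Irf5 rose with DINCH by 0.72 (standard error 0.17, limma, adjusted p = 0.0282) and fell with DOM by 0.61 (standard error 0.16, limma, adjusted p = 0.0197), but the calls held in only 1 and 4 of the 8 fits with an array left out.

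Of 79 other interferon-induced genes that were not on the list of 40, 51 were tested with DINCH and 50 with DOM. With DINCH 10 rose and 1 fell, where 4.25% of all genes were called higher and 4.02% lower. With DOM 1 rose and 10 fell, where 9.9% of all genes were called higher and 10.6% lower. Their median change was 0.20 with DINCH and −0.17 with DOM. Over all 96 tested pathway genes DINCH gave 12 higher and 1 lower, and over 95 DOM gave 3 higher and 13 lower, beside 8.26% and 20.5% of all genes called in either direction. The DOM count of 16 of 95 is near the share of all genes. With dim probes kept, 3 of the pathway genes were called with DINCH, and after normexp background correction 7 with DINCH and 9 with DOM. This list too was drawn up with results of the data known.

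Ifi27l2a, a gene of the ISG12 family, rose most of these with DINCH. It had log2 levels of 0.88, 1.34, 1.43 and 0.91 with DMSO, 2.61, 2.40, 2.18 and 2.35 with DINCH and 1.09, 1.22, 1.28 and 0.66 with DOM. DINCH arrays lay above all arrays of both other groups, and the change against DMSO was 1.25 (standard error 0.16, limma, adjusted p = 0.00363, 4 of 4 arrays). Ifit3b rose by 1.15 (standard error 0.13, limma, adjusted p = 0.00346), and Igtp, which codes for an immunity-related GTPase, by 0.78 (standard error 0.14, limma, adjusted p = 0.0115). Apol9a and Apol9b, near-identical apolipoprotein genes whose probes may share signal, rose by 0.77 and 0.85. The call of Apol9a was absent without DMSO replicate 3. Mov10, an RNA helicase gene, rose by 0.65 (standard error 0.09), and Isg20, an exonuclease gene, by 0.74 (standard error 0.11). Tgtp2, Phf11a and Sp140 were also called higher, Tgtp2 and Phf11a in 3 and 1 of the 8 fits with an array left out and Sp140 on a dimmer probe. Ifi204, a DNA-binding gene of the HIN-200 family, fell by 0.62 (standard error 0.11, limma, adjusted p = 0.0107), a call absent without DMSO replicate 1.

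With DOM, Phf11b fell by 1.96 (standard error 0.31, limma, adjusted p = 0.00201) and was well above background on 1 of 4 DOM arrays and 4 of 4 DMSO arrays. Tgtp2, a T cell-specific GTPase gene by name, had log2 levels of −2.64, −1.88, −2.0 and −2.13 with DMSO, −1.62, −1.34, −1.47 and −0.96 with DINCH and −3.82, −3.34, −3.14 and −4.07 with DOM. DOM arrays lay below all arrays of the other 2 groups, and the change against DMSO was −1.43 (standard error 0.23, limma, adjusted p = 0.00219, 4 of 4 arrays). The HIN-200 genes Ifi211 (−1.16), Mndal (−1.09) and Ifi204 (−0.71) fell together with Apol9b (−1.07), Apol9a (−0.93), Tor3a (−0.76) and Nmi (−0.71), and each of these 7 calls held with every array left out in turn. After normexp background correction the calls of Ifi211, Mndal, Nmi, Tgtp2 and Phf11b were absent. Sp110 was called lower on dimmer probes and Isg20 higher on a dimmer probe.

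**Figure D5:**
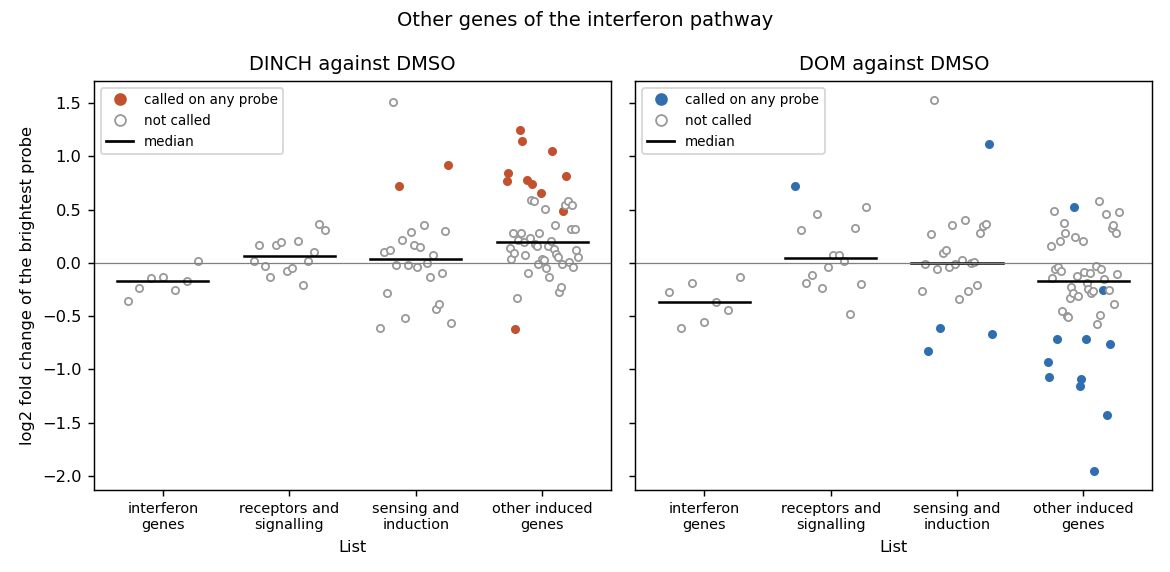
log2 fold change of the brightest probe of the other tested interferon pathway genes for DINCH (left) and DOM (right) against DMSO, by list (points, filled where called on any probe; line, median). In the list of other interferon-induced genes the median is 0.20 with DINCH and −0.17 with DOM.

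In DOM against DINCH, 0 of 51 other interferon-induced genes rose and 19 fell, where 11.8% of all genes were called higher and 11.6% lower. Phf11a was well above background on no DOM array and on 4 of 4 DINCH arrays, and was at least 4.65-fold lower with DOM (measured means −5.59 and −2.30), a bound set by the lowest signal above background on each DOM array. In DOM against DOS 1 of 51 rose and 10 fell (7.15% and 8.06% of all genes), and in DINCH against BDB 16 of 51 rose and 2 fell (5.41% and 4.48% of all genes). With MEHP 1 rose (Isg20, on a dimmer probe) and 3 fell, Irgm2 by 1.15 (standard error 0.21), Trim21 by 0.97 (standard error 0.19) and Ifit3b by 0.65 (standard error 0.13), and these 3 calls held in 1, 1 and 0 of the 8 fits with an array left out. With BDB 0 of 49 and with DOS 0 of 51 were called in limma, with 11 and 6 at an unadjusted p below 0.05.

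The levels of other cells' markers were set beside these results. Of 9 macrophage and leukocyte markers, the 3 above background (Itgam, Csf1r, Cd14) had changes of −0.03 to 0.14 with DINCH and −0.16 to 0.44 with DOM, and none was called in limma, with 0 and 2 at an unadjusted p below 0.05. Of 8 tested Sertoli cell markers 2 were called higher with DINCH, and 2 higher and 1 lower with DOM, where 8.26% and 20.5% of all genes were called in either direction. In DOM against DINCH 2 of 7 tested were called higher (Gata4, Inhbb) and 2 lower (Dhh, Kitl), beside 23.3% of all genes. In DOM against DOS 2 of 9 were called higher (Inha, Inhbb) and 3 lower (Clu, Dhh, Sox9), beside 15.2% of all genes. In DINCH against BDB 1 of 8 was called, higher (Dhh), beside 9.89% of all genes. Of 3 tested peritubular myoid cell markers, Cnn1 fell with DOM by 1.21 against DMSO (limma, adjusted p = 0.000967). Cnn1 was lower with DOM than with DINCH by 1.55 (limma, adjusted p = 0.00012) and than with DOS by 2.02 (limma, adjusted p = 0.000999). Tagln was lower with DOM than with DOS by 0.89 (limma, adjusted p = 0.0113) and was not called with DOM against DMSO. With DOS against DMSO the 3 markers were 0.71 to 0.81 higher, none of them called, with 3 at an unadjusted p below 0.05. With DINCH against DMSO none of the 3 was called in limma (2 at an unadjusted p below 0.05), and their changes were 0.04 to 0.34. The 1 tested Leydig cell marker, Cyp17a1, was lower with DOM than with DINCH by 0.65 (limma, adjusted p = 0.0197). Against DMSO it was 0.32 with DINCH and −0.33 with DOM, and neither was called. No germ cell marker was tested. The part of cell composition in the interferon-induced genes was not tested.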

How the data were processed

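RNA of 23 TM4 cultures was measured on 1-colour Agilent arrays, 4 per group and 3 for DOS, and the groups and replicate numbers were taken from the labels. The deposited scanner files hold processed signal intensities written by Feature Extraction 11.5.1.1 (background subtracted, linear scale), and the authors' own table holds log2 values shifted to the 75th percentile of each array. That table was used as an alternative only. The study left out 1 DOS array for high background. Rows could be set against the scanner files, with a lowest correlation of 0.9996.

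Intensities below 1 were set to 1, log2 transformed and shifted so that the 75th percentile of the 59305 spots that are no controls was 0 on each array. Outlier spots (102 to 187 per array) were dropped and spots of 1 probe averaged, which left 55681 probes, of which 26582 were named through RefSeq accessions (GRCm38.p6). The arrays' own coordinates refer to another build and were not used. A probe entered a test if all arrays of 1 of the groups had it well above background and not under their 20th percentile. Each comparison was fitted in limma 3.58.1 (R 4.3.3) on the arrays of its 2 groups, with Benjamini-Hochberg adjustment over all tested probes, and a gene was called where any of its probes passed an adjusted p of 0.05 with over 1.5-fold change. The number of arrays limits the precision. Standard errors and p-values are those of the moderated fit, which sets each difference against the spread between arrays within the groups. The main fit has no term for the slide.

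The members and lists were chosen with earlier results of these data known. Values on every array are given for the 4 transcription factors, Isg15 and the 5 members that changed most in each of DOM against DMSO, DINCH against DMSO and DOM against DINCH. Of the other pathway genes, those called were named, at most 10 in each direction, and Ifnb1, Ifnar1, Ifnar2, Jak1, Tyk2 and Irf3 in any case. Some genes of these lists are not reported here. Alternatives were quantile normalization, normexp background correction (offset 50), no filter on dim probes, a block for the slide or for the replicate number, a joint fit of the 6 groups, the brightest probe only, the authors' table and each array left out. The replicate numbers in the labels were checked by the correlation of deviations from the group means. In every same-numbered pair it was over 0.1 for DINCH (0.17 to 0.50), BDB (0.25 to 0.43) and DOS (0.20 to 0.45) against DMSO, DINCH against BDB (0.15 to 0.37) and DOM against DOS (0.10 to 0.40), and it was not for MEHP and DOM against DMSO and for DOM against DINCH. Many same-numbered arrays shared a slide, and for MEHP, DINCH and DOM against DMSO the lowest value came from a pair on different slides. The correlation therefore cannot tell a shared culture from a shared slide. The fit was tested on simulated data with 200 probes changed by 1 log2 unit. It recovered 76% of them for DINCH and 72.5% for DOM against DMSO, and 60.5% for DOM against DOS.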

Additional observations from a re-analysis of the deposited data

Results flagged for a closer look

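In groups of 4 arrays the array farthest out was compared with its nearest neighbour for the mean over the genes and for the named genes, and 7 of 70 such groups stood out where 3.5 would by chance. The mean over the interferon-induced genes was −0.74 on DOM replicate 4, with −0.55 on the nearest DOM array. Irf1 was lowest on MEHP replicate 3 (4.32, nearest 4.47) and Irf7 highest on DINCH replicate 1 (−1.39, nearest −1.89). Ifi44 was lowest on DINCH replicate 3 (−1.53, nearest −1.35). Phf11d was highest on MEHP replicate 2 (−2.85, nearest −3.22) and lowest on DINCH replicate 2 (−1.49, nearest −1.33). Oasl2 was highest on DMSO replicate 4 (0.60, nearest 0.15).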

How the results depend on the processing

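Of 1638 values of named interferon-induced genes under the alternatives, 1597 moved by less than the spread between replicates. Of the values called in the main fit 0 changed direction, and a change of sign was not counted for uncalled values. Of 1458 values of other pathway genes, 1241 kept direction and call, 207 lost the call and 9 changed sign. These 9 were uncalled values near 0. With 1 array left out, Ifnar1 with DINCH ran from −0.0483 to 0.0939, Irf3 with DINCH from −0.0657 to 0.0182 and Jak1 with DOM from −0.107 to 0.0142. Irf3 with DINCH was 0.00772 after normexp correction, and after quantile normalization Jak1 and Irf3 with DOM were 0.0350 and 0.0142.

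Without the filter on dim probes, genes of the list called were 0 with MEHP, 4 with DINCH, 6 in DOM against DOS and 17 in DINCH against BDB, and other pathway genes 0, 3, 2 and 11. After normexp correction they were 1 with MEHP, 2 with BDB and 17 in DINCH against BDB, and other pathway genes 1 with MEHP, 7 with DINCH, 9 with DOM, 9 in DOM against DOS and 12 in DINCH against BDB. With all 6 groups in 1 fit 7 were called with MEHP and 4 with BDB, and with the slide as a block 4 with BDB and 1 other pathway gene. With the replicate number as a block no count of the list moved by over 1.5 times (5 with MEHP, 16 with DINCH, 15 with DOM, 0 with BDB and with DOS, 23 in DOM against DINCH, 12 in DOM against DOS and 25 in DINCH against BDB). Where the numbers paired the cultures, it ended the calls of Gbp3 and Irf7 with DINCH, of Stat2, Adar, Ifnar1 and Mndal in DOM against DOS and of Herc6 and Adar in DINCH against BDB. It added Cgas, Irgm2 and Slfn9 with DINCH, Herc6 and Zbp1 in DOM against DOS and Trim12c, Trim21 and Uba7 in DINCH against BDB, and changed no other call of these lists in the paired comparisons. The cause was not tested.

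With 1 array left out, called genes of the list were 1 to 5 with MEHP, 12 to 17 with DINCH, 12 to 16 with DOM, 0 to 0 with BDB and DOS, 22 to 25 in DOM against DINCH, 8 to 12 in DOM against DOS and 23 to 27 in DINCH against BDB. Other pathway genes were 1 to 5, 8 to 14, 16 to 21, 0 to 0, 0 to 1, 23 to 27, 10 to 18 and 13 to 19 in MEHP, DINCH, DOM, BDB, DOS, DOM against DINCH, DOM against DOS and DINCH against BDB. The lowest DINCH count, 8, came without DMSO replicate 3, the lowest in DOM against DOS, 10, without DOS replicate 1 or DOM replicate 2, and the 1 call with DOS without DOS replicate 3. Usp18 was well above background on 17 and Oas1a on 15 of the 23 arrays, and Phf11d on 1 of 4 DOM arrays.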
